A study of Mus musculus with 12 samples.

Results

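The nuclear genes for the proteins of the mitochondrial ribosome were followed in hippocampal microglia of irradiated and sham-treated mice. They were taken as all genes whose symbol in the probe set annotation starts with Mrpl or Mrps, which gave 76 of the 18193 genes on the array. Each gene was read from its brightest probe set, and 71 of the 76, among 9120 genes in all, exceeded a log2 value of 5 in 3 or more arrays. The cells were sorted for CD11b by flow cytometry from the hippocampus of female mice from the Jackson Laboratory, and 5000 to 10000 cells of 1 animal went onto each Affymetrix 430 2.0 array. The 4 groups of 3 arrays were irradiated C57BL/6, sham C57BL/6, irradiated Balb/c and sham Balb/c mice. Irradiated mice were given 10 Gy of X-rays once, in a 1 cm circle above the forebrain, at 6.5 weeks of age, sham mice received none, and all were analysed 1 month later at 10.5 weeks. The labels name no transgene or mutant allele for any group. With 3 arrays a group, the number of arrays limits the precision. As a caution, 2 arrays are referred to below as those that stand apart. Irradiated C57BL/6 replicate 3 had the lowest mean correlation with its own group, though only narrowly (0.990, in a range of 0.990 to 0.996 over the 12 arrays). Irradiated Balb/c replicate 2 had the most 3'-weighted signal.

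Mitochondria keep their own ribosome, which translates the few messages of mitochondrial DNA into core subunits of the respiratory chain and of ATP synthase. Its RNAs come from mitochondrial DNA, whereas all of its proteins are encoded in the nucleus, made in the cytosol and imported. Some of these proteins have counterparts in bacterial ribosomes and others were added in the mitochondrial lineage. The small subunit decodes the message, and the large subunit forms the peptide bond and is anchored at the inner membrane.

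Of the 71 genes, 46 encode proteins of the large subunit and 24 of the small subunit, counting Mrps18a and Mrps30 as large subunit genes because their proteins sit there despite the name. The remaining one, Mrps36, carries the prefix but encodes a subunit of 2-oxoglutarate dehydrogenase, now named Kgd4. By origin, 42 of the genes have a bacterial counterpart and 28 are specific to mitochondria. All 12 arrays exceeded the filter value for 70 of the 71 genes, the exception being Mrpl10, whose lowest array stood at 4.91. The dimmest genes inside the filter were Mrpl21, at 5.22 to 5.65, Mrpl10, at 4.91 to 6.35, and Mrpl54, at 5.01 to 6.28. Just outside it lay Mrpl37, at 4.50 to 5.32, and Mrps11, at 4.33 to 6.08. Mrpl14, Mrpl55 and Mrps27 were also below it, and these 5 genes were not tested.

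Promoter windows running from 250 bases before to 50 bases after the gene start were available from RefSeq (build GRCm38.p6, from the C57BL/6J strain) for 62 of the 71 genes, as 68 windows. The 3 windows printed here belong to the genes on which the comparisons turned. Mrps26 (chr2:130563507-130563806, plus strand) and Mrps10 (chr17:47368947-47369246, plus strand) differed most clearly between the strains, and Mrps18b (chr17:35916391-35916690, minus strand) was the single gene called after irradiation. Capitals mark matches on either strand to CCGGAAG, the core bound by ETS factors such as GABP. They also mark GCGCA and GCGC set 1 base of any kind apart, a site of the nuclear respiratory factor NRF-1.
Mrps26: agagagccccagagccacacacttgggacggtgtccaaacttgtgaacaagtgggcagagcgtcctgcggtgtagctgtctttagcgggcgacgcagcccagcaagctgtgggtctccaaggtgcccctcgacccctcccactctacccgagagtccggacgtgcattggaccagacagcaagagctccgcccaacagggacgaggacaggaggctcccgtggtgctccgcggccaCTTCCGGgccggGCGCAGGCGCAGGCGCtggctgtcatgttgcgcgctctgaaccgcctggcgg
Mrps10: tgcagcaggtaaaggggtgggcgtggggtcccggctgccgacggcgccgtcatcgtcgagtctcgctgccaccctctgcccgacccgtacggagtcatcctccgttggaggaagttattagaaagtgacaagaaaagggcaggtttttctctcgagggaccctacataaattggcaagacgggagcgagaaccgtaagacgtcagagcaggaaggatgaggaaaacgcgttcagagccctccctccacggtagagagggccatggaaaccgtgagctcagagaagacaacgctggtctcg
Mrps18b: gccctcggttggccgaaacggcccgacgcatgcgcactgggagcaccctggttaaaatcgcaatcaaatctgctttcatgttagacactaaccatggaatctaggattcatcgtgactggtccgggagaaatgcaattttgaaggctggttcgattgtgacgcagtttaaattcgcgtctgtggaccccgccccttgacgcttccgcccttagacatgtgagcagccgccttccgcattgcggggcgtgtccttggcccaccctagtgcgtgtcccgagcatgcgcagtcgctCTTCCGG
The Mrps26 window held 1 ETS match and 2 overlapping NRF-1 matches close to the gene start. The Mrps18b window held 1 ETS match at its end, and the Mrps10 window held neither motif.

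Among the 68 windows, 35.3% held the ETS motif, against 18% of the windows of all kept genes and 8.86% of all 32851 promoter windows. NRF-1 matches were in 16.2% of them, against 10.5% and 4.6% of the same 2 sets. AAGATGGC, the core bound by YY1, was in 13.2%, against 4.55% and 2.75%. GC boxes (GGGCGG) were in 51.5%, against 62.5% and 35.7%, and CCAAT boxes were in 41.2%, against 36.9% and 37.4%. The E-box CACGTG was in 8.82%, against 10.4% and 7.15%, and TATAAA in 7.35%, against 7.28% and 13.6%. The median GC content was 58.2% in these windows, 61% in those of all kept genes and 52.7% in all promoters. The ETS, NRF-1 and YY1 matches were thus more frequent here than in the kept genes at a slightly lower GC content, as a description of letters with no test. Genes with an NRF-1 match were Mrpl9, Mrpl12, Mrpl17, Mrpl32, Mrpl39, Mrpl44, Mrpl45, Mrpl57, Mrps9, Mrps21 and Mrps26.

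In C57BL/6 mice, irradiation left the mitochondrial ribosomal protein genes without a single call: 0 of 71 passed an adjusted p of 0.05 (limma), where 3.67% of all kept genes did, 2.21% higher and 1.46% lower. At an unadjusted p under 0.05 there were 6, against 21.3% of all kept genes. Changes are log2 differences, irradiated minus sham, with the standard error of the fit. Their median was 0.05, against -0.04 over all kept genes, and they ran from -0.48 to 0.66. Of the 71 changes 39 were positive, a share of 54.9% against 45.2% of all kept genes. The arrays of irradiated and sham mice did not overlap for 7 of them, 5 higher and 2 lower, or 9.86% against 26.5% of all kept genes. The 95% interval of the change excluded a doubling and a halving for 68 of the 71 genes.

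Mrps18b, a small subunit protein, was nearest to a call in C57BL/6. Its log2 values were 8.16, 8.38 and 8.18 in irradiated C57BL/6 arrays, against 7.58, 7.89 and 7.74 in sham arrays. Every irradiated array lay above every sham array, with a change of 0.50 ± 0.14 (adjusted p = 0.073, limma). Mrpl51, of the mitochondria-specific part of the large subunit, stood at 11.60, 11.41 and 11.73 in irradiated C57BL/6 arrays, against 11.44, 10.995 and 11.22 in sham arrays. These groups overlapped, and the change was 0.36 ± 0.13 (adjusted p = 0.151, limma). Mrpl18, whose counterparts in the cytosolic and bacterial ribosome bind 5S rRNA, had 10.30, 10.48 and 10.58 in irradiated C57BL/6 arrays, against 10.14, 10.28 and 10.04 in sham arrays. Its groups did not overlap, at a change of 0.30 ± 0.11 (adjusted p = 0.156, limma). On the negative side, Mrpl54 had a change of -0.48 ± 0.18, Mrpl9 of -0.37 ± 0.19 and Mrpl46 of -0.30 ± 0.16, at adjusted p of 0.164, 0.274 and 0.311 (limma). All 3 are large subunit genes. The largest change, 0.66, was that of Mrpl27, which was not called. It had 10.11, 10.10 and 10.51 in irradiated C57BL/6 arrays, against 9.49, 9.64 and 9.62 in sham arrays. A single call appeared without irradiated C57BL/6 replicate 2, for Mrps6, and without irradiated Balb/c replicate 2, for Mrpl27.

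In Balb/c mice the result was again 0 calls of 71, where 6.15% of all kept genes were called, 3.26% higher and 2.89% lower. At an unadjusted p under 0.05 there were 5, against 22.8% of all kept genes. The median change was -0.05, against -0.04 over all kept genes, with a range of -0.59 to 0.37, and 24 of the 71 changes were positive (33.8% against 44.2%). Irradiated and sham arrays did not overlap for 12 genes, 5 higher and 7 lower, or 16.9% against 29.2% of all kept genes. For 70 of the 71 genes the 95% interval excluded a doubling and a halving, and the exception was Mrps22.

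Mrps23, a mitochondria-specific small subunit gene, was nearest to a call in Balb/c. Its values were 5.64, 5.53 and 5.56 in irradiated Balb/c arrays, against 6.24, 5.81 and 5.88 in sham arrays. All irradiated arrays lay below all sham arrays, with a change of -0.40 ± 0.12 (adjusted p = 0.0841, limma), at a level close to the filter. Mrps23 had 2 probe sets above the filter, and only the brighter is reported here. Mrpl24 had 11.36, 11.44 and 11.66 in irradiated Balb/c arrays, against 11.79, 11.70 and 11.93 in sham arrays, a change of -0.32 ± 0.12 (adjusted p = 0.129, limma). Mrpl4 had 7.86, 7.65 and 7.65, against 8.35, 8.14 and 7.97, a change of -0.43 ± 0.16 (adjusted p = 0.146, limma). Neither of these large subunit genes overlapped between the groups. Among positive changes, Mrpl33, the counterpart of a small protein of the bacterial large subunit, had 0.37 ± 0.15 (adjusted p = 0.155, limma). Mrps36, outside the ribosome, had 0.22 ± 0.11 and Mrpl11, of the stalk base, 0.25 ± 0.14 (adjusted p = 0.26 and 0.341, limma).

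The average of both strains has the smallest error, and it gave 1 call of 71, where 15.9% of all kept genes were called, 7.72% higher and 8.15% lower. At an unadjusted p under 0.05 there were 7 genes, against 31.7%. The median change was 0.00, against -0.05 over all kept genes, and the range was -0.33 to 0.44. The 95% interval excluded a doubling and a halving for all 71 genes, against 87.0% of all kept genes, and its median half-width was 0.23. The called gene was Mrps18b, which was 1.26-fold higher in irradiated mice, at a change of 0.33 ± 0.10 (adjusted p = 0.0454, limma). In Balb/c its values were 8.44, 8.25 and 8.16 in irradiated arrays, against 8.30, 7.89 and 8.18 in sham arrays, which overlapped, and its change was 0.16 ± 0.14. The call was held under 6 of 23 alternatives, with adjusted p between 0.033 and 0.0994. It was lost without any single array except sham C57BL/6 replicate 2 and sham Balb/c replicate 1.

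Below the call in the average, Mrpl51 had a change of 0.29 ± 0.09 (adjusted p = 0.0585, limma). Mrpl33 had 0.30 ± 0.10 (adjusted p = 0.0695), and its values were 9.95, 10.18 and 10.31 in irradiated Balb/c arrays, against 9.67, 10.03 and 9.61 in sham arrays. The most negative by p were Mrpl22, whose bacterial counterpart lines the exit tunnel, at -0.26 ± 0.09, Mrpl24 at -0.20 ± 0.08 and Mrpl54 at -0.30 ± 0.13. Their adjusted p were 0.0794, 0.123 and 0.137 (limma). The paralogs of Mrps18b were not called: Mrps18a had 0.07 ± 0.14 and Mrps18c had 0.03 ± 0.09. Mrps12, the counterpart of the bacterial streptomycin-site protein, had -0.04 ± 0.10. Mrpl12, of the stalk that recruits translation factors, had -0.00 ± 0.17 in C57BL/6 and -0.21 ± 0.17 in Balb/c, and the Balb/c value turned to 0.05 with the 3' minus 5' covariate.

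**Figure D1:**
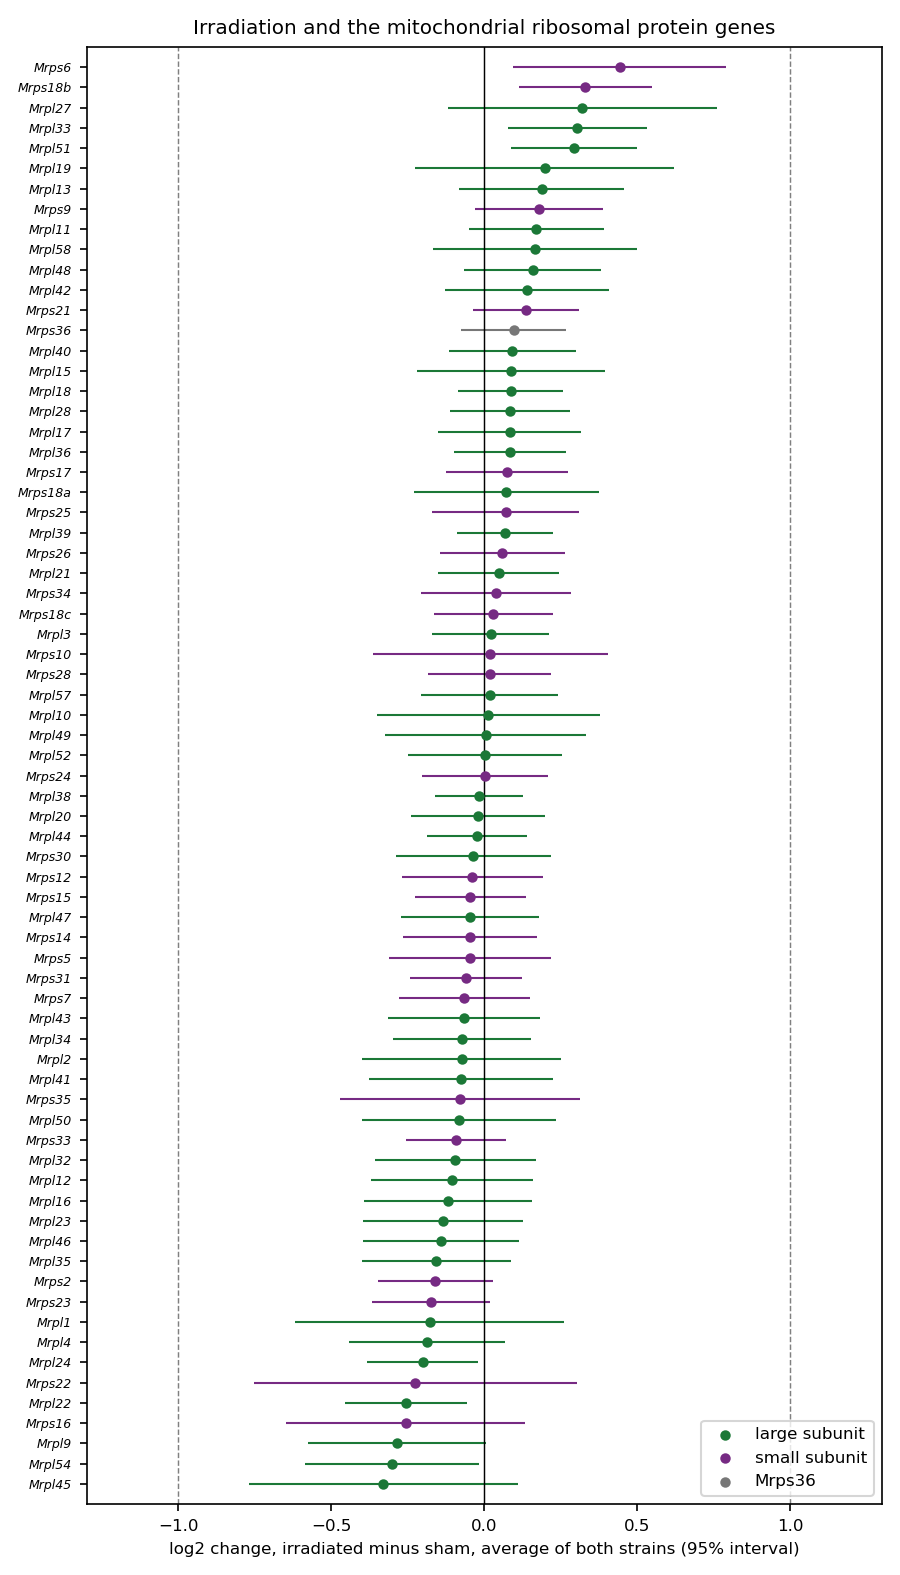
Log2 change, irradiated minus sham and averaged over both strains, of each of the 71 kept genes, with its 95% interval; colours mark the large subunit, the small subunit and Mrps36. The changes run from -0.33 to 0.44 and every interval lies between a halving and a doubling.

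No gene of the set was called for a different response to irradiation in the strains: 0 of 71 were called for the difference (Balb/c minus C57BL/6), where 0.0768% of all kept genes were, 0.0439% higher and 0.0329% lower. At an unadjusted p under 0.05 there were 2, Mrpl18 at -0.42 ± 0.16 and Mrps23 at -0.44 ± 0.17 (adjusted p = 0.558 and 0.577, limma), against 8.06% of all kept genes. Next in p came Mrpl20 at -0.42 ± 0.20, with Mrps30 at 0.45 ± 0.23, Mrpl52 at 0.41 ± 0.23 and Mrps36 at 0.25 ± 0.16 on the positive side. The median difference was -0.10, against -0.02 over all kept genes, and 22 of the 71 were positive. Without the 2 arrays that stand apart, irradiated C57BL/6 replicate 3 and irradiated Balb/c replicate 2, that median was -0.00. The interval of the difference excluded 2-fold in either direction for 62 of the 71, and its median half-width was 0.46.

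The 2 irradiation comparisons share no arrays and can be set side by side. Of the 71 genes 38 changed in the same direction in both strains, or 53.5%, against 68.1% of all kept genes. Across these genes, which share arrays and are not independent, Pearson's r between the 2 changes was 0.22 and Spearman's rho 0.21, against 0.63 and 0.50 across all kept genes. The strain differences behaved otherwise. Measured in sham and in irradiated mice, they had the same direction for 51 of 71 genes (71.8%, against 64.7% of all kept genes), with r = 0.72 and rho = 0.64 (0.75 and 0.47 across all kept genes).

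**Figure D2:**
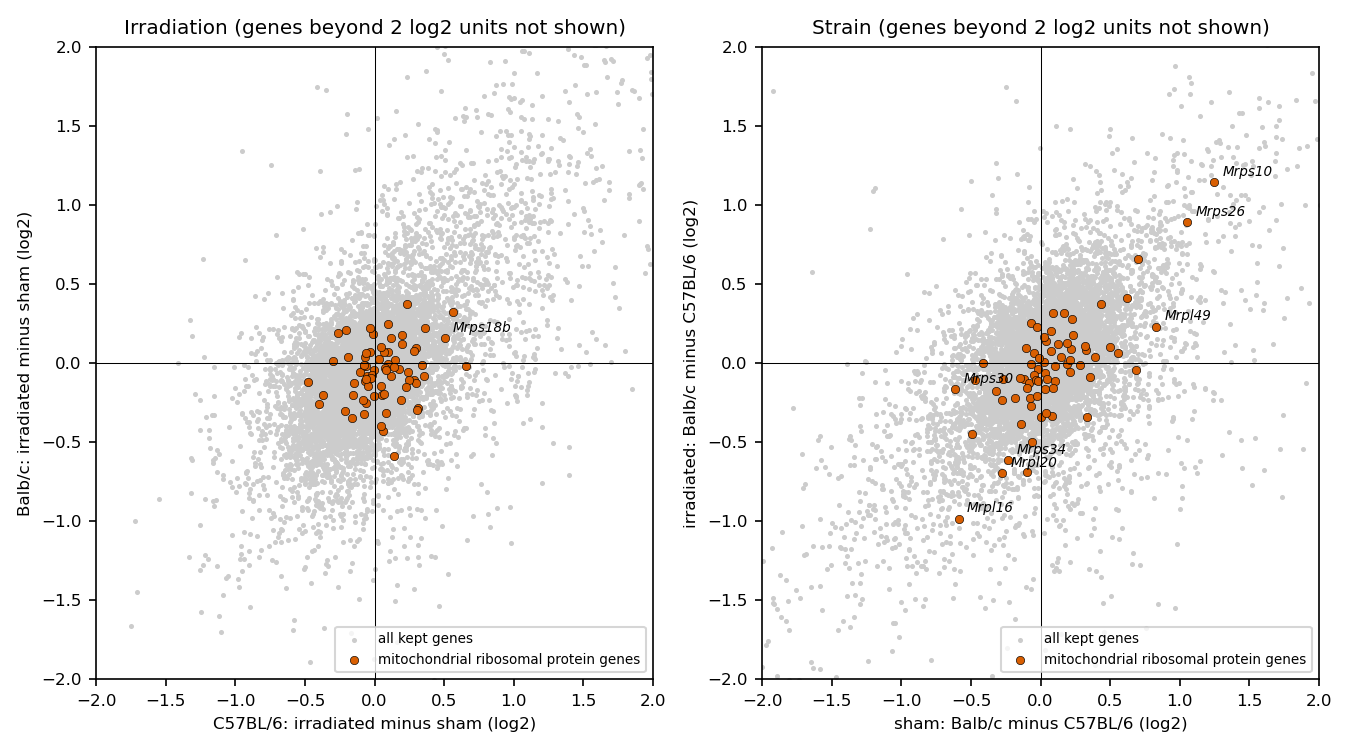
Log2 changes of the mitochondrial ribosomal protein genes (orange) over all kept genes (grey) in pairs of comparisons that share no arrays; genes beyond 2 log2 units are not drawn. The irradiation changes in the strains were weakly related across the 71 genes (r = 0.22), and the strain differences in sham and irradiated mice more closely (r = 0.72).

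Between the strains, single genes of the set differed by about 2-fold, some higher and some lower in Balb/c. In sham mice 4 of 71 were called, 3 higher and 1 lower in Balb/c, or 5.63% where 10.5% of all kept genes were called, 5.22% higher and 5.24% lower. The median difference, Balb/c minus C57BL/6, was 0.03, against 0.04 over all kept genes, with a range of -0.61 to 1.25. Arrays of the strains did not overlap for 18 genes, 11 higher and 7 lower, or 25.4% against 28.5%. In irradiated mice 5 were called, 2 higher and 3 lower, or 7.04% where 8.97% of all kept genes were called, 4.38% higher and 4.59% lower. The median was -0.04 against 0.02, with a range of -0.98 to 1.14. Here 19 did not overlap, 8 higher and 11 lower, or 26.8% against 27.4%. Both shares were near or below those of all kept genes, and each called gene was read from 1 probe set above the filter, so no second probe set of that gene alone checks it. A probe set shared by Mrps34 and Nme3, not used because it names both, had 8.24 ± 0.60 in irradiated Balb/c and 8.78 ± 0.06 in irradiated C57BL/6 mice (SD, n = 3 each). The arrays of these 2 groups overlapped there, and irradiated Balb/c replicate 2 was the lowest, at 7.59. Whether base differences between the strains lie under these probes was not tested.

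Mrps26 on chromosome 2, a mitochondria-specific small subunit gene, gave the smallest p of the set. Its values were 9.67, 9.75 and 9.88 in irradiated and 9.70, 9.94 and 9.73 in sham Balb/c arrays. In C57BL/6 they were 9.11, 8.68 and 8.84 in irradiated and 8.79, 8.78 and 8.64 in sham arrays. The lowest Balb/c array thus lay above the highest C57BL/6 array. It was 2.08-fold higher in Balb/c among sham mice, at 1.06 ± 0.13 (adjusted p = 3.63e-04), and 1.85-fold higher among irradiated mice, at 0.89 ± 0.13 (adjusted p = 0.00142, both limma). Every alternative kept both calls, 25 for sham and 24 for irradiated mice, with adjusted p up to 0.0047 and 0.0306.

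Mrps10 on chromosome 17 encodes the counterpart of bacterial S10, a protein of the head of the small subunit. Its values were 9.74, 9.51 and 9.75 in irradiated and 9.48, 9.62 and 10.00 in sham Balb/c arrays. In C57BL/6 they were 8.40, 8.41 and 8.76 in irradiated and 8.40, 7.93 and 9.02 in sham arrays. The strains did not overlap in either treatment, although sham C57BL/6 arrays spread over more than 1 log2 unit. It was 2.38-fold higher in Balb/c among sham mice, at 1.25 ± 0.25 (adjusted p = 0.0074), and 2.21-fold higher among irradiated mice, at 1.14 ± 0.25 (adjusted p = 0.0139, both limma). The second call was lost without irradiated C57BL/6 replicate 2 (adjusted p = 0.0529), with no filter, and with the 3' minus 5' covariate described with the arrays (adjusted p = 0.137).

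Mrpl16 on chromosome 19 encodes the counterpart of bacterial L16, near the peptidyl transferase centre. Its values were 8.37, 8.31 and 8.02 in irradiated Balb/c arrays, against 8.93, 9.28 and 9.44 in irradiated C57BL/6 arrays. Among sham mice they were 8.48, 8.59 and 8.58 in Balb/c, against 9.41, 9.18 and 8.83 in C57BL/6. All Balb/c arrays were below all C57BL/6 arrays. It was 1.98-fold lower in Balb/c among irradiated mice, at -0.98 ± 0.18 (adjusted p = 0.00479), and had -0.59 ± 0.18 among sham mice (adjusted p = 0.0579, both limma). With the covariate the first became -0.89 at an adjusted p of 0.088.

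Mrpl20 on chromosome 4, whose bacterial counterpart binds 23S rRNA early in assembly, had 7.87, 7.56 and 7.94 in irradiated Balb/c arrays, against 8.41, 8.39 and 8.68 in irradiated C57BL/6 arrays. These groups did not overlap, and Mrpl20 was lower by -0.70 ± 0.14 (adjusted p = 0.00961, limma). In sham mice the difference was -0.27 ± 0.14 (adjusted p = 0.284). Mrps34 on chromosome 17, needed for small subunit assembly, had 7.79, 8.08 and 8.35 in irradiated Balb/c arrays, against 8.43, 8.71 and 8.91 in irradiated C57BL/6 arrays. It was lower by -0.61 ± 0.16 (adjusted p = 0.0343, limma) and had -0.23 ± 0.16 among sham mice. Irradiated Balb/c replicate 2, with the largest 3' minus 5' difference, was the lowest Balb/c array for Mrpl20 but not for Mrps34. Both calls were lost without the 2 arrays that stand apart, at adjusted p of 0.0978 for Mrpl20 and 0.202 for Mrps34. The 3' minus 5' covariate also ended them, at -0.49 and adjusted p = 0.196 for Mrpl20 and -0.68 and adjusted p = 0.157 for Mrps34 (limma), as did a fit of the compared groups alone (adjusted p = 0.0515 and 0.136). Mrps34 also lost its call without irradiated C57BL/6 replicates 2 or 3, sham Balb/c replicate 3, or irradiated Balb/c replicates 1 or 2.

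Mrpl49 on chromosome 19, a mitochondria-specific large subunit gene, had 8.87, 8.64 and 8.52 in sham Balb/c arrays, against 7.31, 8.001 and 8.22 in sham C57BL/6 arrays. The groups did not overlap, with sham C57BL/6 replicate 1 well below the other two, at 0.83 ± 0.21 (adjusted p = 0.0291, limma). Without that array the difference was 0.56 (adjusted p = 0.0514). The call was also lost without sham Balb/c replicates 1 or 2, and among irradiated mice the difference was 0.23 ± 0.21. Mrps30 on chromosome 13, also known as a programmed cell death protein and sited in the large subunit, had 8.07, 8.06 and 8.06 in sham Balb/c arrays, against 8.39, 8.82 and 8.82 in sham C57BL/6 arrays. It was lower by -0.61 ± 0.16 (adjusted p = 0.0356, limma). The call was lost without sham C57BL/6 replicates 2 or 3, any sham Balb/c array, or irradiated Balb/c replicate 1, and among irradiated mice the difference was -0.17 ± 0.16. The strain difference was not shown to differ between treatments for either gene (adjusted p = 0.637 for Mrpl49 and 0.653 for Mrps30, limma).

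**Figure D3:**
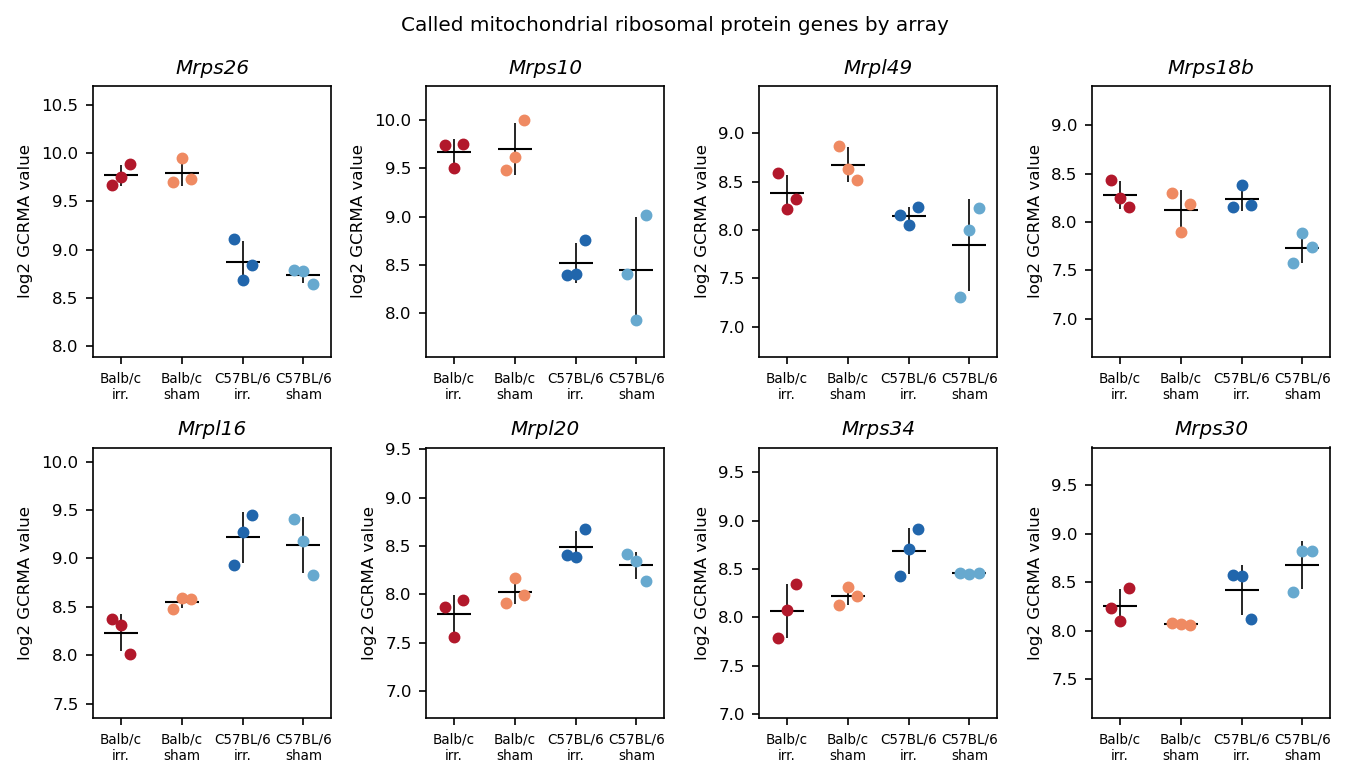
Log2 values in each array of the 8 genes called in the average irradiation comparison or between the strains within a treatment, by group; points are arrays, bars group means and vertical lines ± SD (n = 3). Mrps26 and Mrps10 lie higher in every Balb/c array than in any C57BL/6 array of the same treatment, and Mrpl16 lies lower.

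Averaged over both treatments, a comparison added after the data were seen, the strain difference was called for 10 of 71 genes, or 14.1%, where 17.3% of all kept genes were called, 8.99% higher and 8.29% lower. The 5 higher in Balb/c were Mrps26 (0.97 ± 0.09), Mrps10 (1.20 ± 0.17), Mrps35 (0.68 ± 0.18), Mrpl49 (0.53 ± 0.15) and Mrps14 (0.40 ± 0.10). Lower in Balb/c were Mrpl16 (-0.79 ± 0.12), Mrpl20 (-0.49 ± 0.10), Mrps12 (-0.47 ± 0.10), Mrps34 (-0.42 ± 0.11) and Mrps30 (-0.39 ± 0.12). Of the 5 higher genes 4 encode small subunit proteins, and the 5 lower ones are split between the subunits. Mrps12 had -0.50 ± 0.15 among sham and -0.45 ± 0.15 among irradiated mice, neither of them called (adjusted p = 0.0584 and 0.0914, limma).

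Neither subunit moved as a block. For irradiation, the median change of the 46 large subunit genes was 0.05 in C57BL/6 and -0.07 in Balb/c, and that of the 24 small subunit genes 0.05 and -0.04. Genes with bacterial counterparts had medians of 0.05 and -0.06, and mitochondria-specific genes 0.06 and -0.06. Between strains in sham mice the medians were -0.00 for the large and 0.12 for the small subunit. Within groups, the set varied little: its median SD was 0.174, against 0.217 over all kept genes, at a median level of 8.78 against 8.51. The widest spread was that of Mrps22, at 0.467, followed by Mrpl45 at 0.383, Mrpl27 at 0.383 and Mrpl1 at 0.382. For Mrpl27, irradiated Balb/c replicate 2 stood at 9.12, against 10.30 and 10.28 in replicates 1 and 3.

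Array by array, the median deviation of the 71 genes from their own means lay between -0.11 and 0.09. It was -0.03, -0.02 and 0.09 in irradiated C57BL/6, 0.06, -0.11 and -0.02 in sham C57BL/6, -0.03, -0.08 and 0.09 in irradiated Balb/c and -0.05, 0.04 and 0.04 in sham Balb/c arrays. These ranges overlapped in all 4 groups. For Actb and Gapdh, the 3' minus 5' difference in signal, which grows with shorter RNA products, was between 3.50 and 4.82, highest in irradiated Balb/c replicates 2 (4.82) and 3 (4.21). The 18S control signal was 10.5 to 11.8 in irradiated and 11.9 to 12.3 in sham arrays. Its part in the results was not tested.

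**Figure D4:**
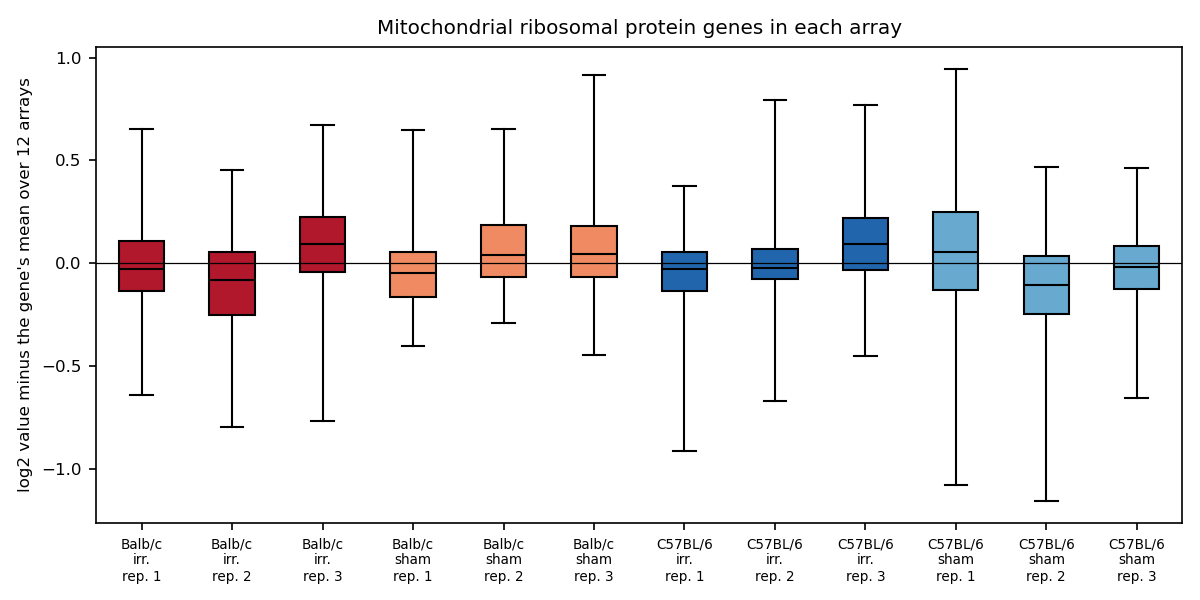
Log2 value minus the gene's mean over the 12 arrays for the 71 genes, 1 box for each array, with the median as its line and whiskers over the full range. The medians lie between -0.11 (sham C57BL/6 replicate 2) and 0.09 (replicate 3 of both irradiated groups).

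Other genes gave a background for these values. Of the subunits of the respiratory chain and ATP synthase 72 of 81 were kept. Their changes were positive for 63 of 72 in C57BL/6 (87.5% against 45.2% of all kept genes), with a median of 0.25. In Balb/c they were positive for 51 (70.8% against 44.2%), with a median of 0.10. None was called in either strain, where 3.67% and 6.15% of all kept genes were. At an unadjusted p under 0.05 (limma) there were 17 and 3, against 21.3% and 22.8% of all kept genes. In the average Ndufa12 was called higher (0.41 ± 0.12, adjusted p = 0.0433) and Uqcrc1 lower (-0.70 ± 0.21, adjusted p = 0.0457, both limma). That was 2.78% of the group, where 15.9% of all kept genes were called. Of the proteins of the cytosolic ribosome 43 of 46 were kept. Their changes were positive for 13 of 43 in C57BL/6 (30.2% against 45.2%), median -0.04, and for 6 in Balb/c (14.0% against 44.2%), median -0.16. Rps27l, a known p53 target, was called higher in C57BL/6 (0.98 ± 0.10, adjusted p = 0.00113) and in Balb/c (0.98 ± 0.10, adjusted p = 9.32e-04), and Rps4l lower in Balb/c (-1.23 ± 0.29, adjusted p = 0.035, all limma). These calls made up 2.33% of the group in C57BL/6 and 4.65% in Balb/c, against 3.67% and 6.15% of all kept genes. At an unadjusted p under 0.05 there were 2 and 11 of the 43, against 21.3% and 22.8%. In the average 2 were called higher and 1 lower, or 6.98% against 15.9%. The mitochondrial ribosomal set lay between the other two in both strains, at 0.05 and -0.05. The groups of genes were not tested against each other.

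**Figure D5:**
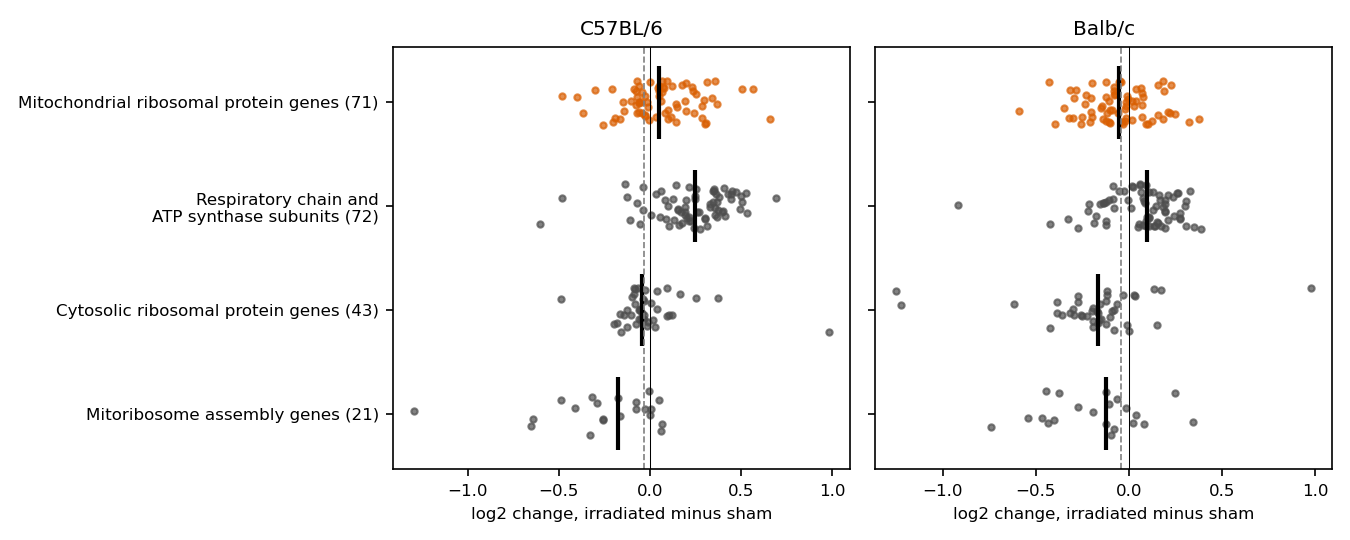
Log2 change, irradiated minus sham, of the genes of each group in C57BL/6 and in Balb/c, with the number of genes in parentheses, black bars at the medians and a dashed line at the median of all kept genes. Medians are 0.05 and -0.05 for the mitochondrial ribosomal protein genes, 0.25 and 0.10 for the respiratory chain and ATP synthase subunits and -0.04 and -0.16 for the cytosolic ribosomal proteins.

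Some factors that build the mitochondrial ribosome were called lower after irradiation. Of 26 listed assembly factors and rRNA-modifying enzymes 21 were kept, and in C57BL/6 2 were called lower and 0 higher, where 1.46% of all kept genes were lower and 2.21% higher. Their median was -0.18. Mrm1, a methyltransferase of the large subunit rRNA, had 4.99, 5.27 and 5.40 in irradiated C57BL/6 arrays, against 6.76, 6.83 and 5.96 in sham arrays. The groups did not overlap, and Mrm1 fell by 1.29 on the log2 scale (SE 0.25, adjusted p = 0.0215, limma). Nsun4, a cytosine methyltransferase of the small subunit rRNA, had 6.70, 7.24 and 6.66 in irradiated C57BL/6 arrays, against 7.72, 7.45 and 7.40 in sham arrays, a change of -0.66 ± 0.16 (adjusted p = 0.0478, limma). Mrm1 lost its call without sham C57BL/6 replicates 1 or 2 or irradiated C57BL/6 replicates 1 or 3, and Nsun4 without 11 of the 12 arrays. In Balb/c none was called and the median was -0.12, with Mrm1 at -0.20 and Nsun4, of opposite sign, at 0.35. The difference between the strains was not called for either gene (adjusted p = 0.51 and 0.225, limma).

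In the average of both strains 4 of the 21 assembly factors were called lower and 0 higher, where 8.15% of all kept genes were lower and 7.72% higher. Their median was -0.20. They were Mrm1 (-0.75 ± 0.18, adjusted p = 0.018), Tfb1m, which dimethylates the small subunit rRNA (-0.56 ± 0.16, adjusted p = 0.0383), the helicase Dhx30 (-0.35 ± 0.10, adjusted p = 0.0419) and the pseudouridine synthase Rpusd4 (-0.35 ± 0.10, adjusted p = 0.044, all limma). Mrm1 kept its call without each of the 12 arrays in turn, whereas Tfb1m lost it without 8 of them, Dhx30 without 9 and Rpusd4 without 10. Of 18 genes of mitochondrial DNA expression and maintenance 15 were kept. In the average 3 were called lower and 0 higher, where 8.15% of all kept genes were lower and 7.72% higher, and their median was -0.13. The 3 include Twnk, which had to differ as set out below, so they are not read against that share. The largest change of this list was a rise of Ppargc1a in C57BL/6, at 2.25 and not called. In Balb/c its means were 6.07 in irradiated and 6.20 in sham arrays. Twnk, the replicative helicase, had 4.59, 4.77 and 4.34 in irradiated C57BL/6 arrays, against 5.04, 4.86 and 5.17 in sham arrays. In Balb/c it had 4.67, 4.52 and 4.60 in irradiated arrays, against 5.64, 5.06 and 5.23 in sham arrays. All irradiated arrays lay below 5, so Twnk passed the filter only through its sham arrays and had to differ. Its average of -0.58 ± 0.12 (adjusted p = 0.0088, limma) is given as a value and supports nothing further. Trmt10c, of the tRNA-processing complex, had -0.51 ± 0.14 and Polg2, the accessory subunit of the mitochondrial polymerase, -0.51 ± 0.15 (adjusted p = 0.0333 and 0.039, limma). They lost their calls without 8 and 9 of the 12 arrays.

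Translation factors and tRNA synthetases of the mitochondrion gave no irradiation call. The 10 kept translation factors of 16 had medians of -0.02 in C57BL/6 and -0.09 in Balb/c. The elongation factor Gfm1 had 0.46 ± 0.19 in C57BL/6 (adjusted p = 0.191, limma), and Tufm, the carrier of aminoacyl-tRNA, had -0.29 ± 0.12 in Balb/c (adjusted p = 0.183, limma). Of the 17 synthetases 10 were kept, and Cars2 had -0.54 ± 0.18 in C57BL/6 (adjusted p = 0.121, limma) and Pars2 -0.27 ± 0.16 in Balb/c (adjusted p = 0.336, limma). Of the cell cycle list 10 of 16 were kept. In C57BL/6 its median was 1.93, with 8 called higher and 0 lower, where 2.21% of all kept genes were higher and 1.46% lower. In Balb/c its median was 0.11, with 0 called higher and 1 lower, where 3.26% of all kept genes were higher and 2.89% lower. Some of these genes lay near or below the filter value in sham C57BL/6 arrays, such as Nusap1 at 4.18, 2.80 and 4.92.

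Subunits of the mitochondrial ribosome without the prefix were few, with 4 kept, and none was called for irradiation. Gadd45gip1, a large subunit protein, had 4.36, 3.39 and 3.42 in irradiated and 3.53, 4.16 and 4.86 in sham Balb/c arrays. In C57BL/6 it had 5.47, 5.65 and 5.83 in irradiated and 5.89, 5.56 and 6.01 in sham arrays, so it passed the filter only through that strain. All Balb/c arrays lay below 5, so Gadd45gip1 had to differ between the strains. Its differences, Balb/c minus C57BL/6, were -1.93 ± 0.33 among irradiated and -1.63 ± 0.33 among sham mice. They are given as values and support nothing further. Dap3, a small subunit GTPase first known for a role in cell death, was lower in irradiated Balb/c mice by -0.79 ± 0.22 (adjusted p = 0.0474, limma) and lost its call without 9 of the 12 arrays. Among assembly factors, Ngrn was higher in Balb/c by 0.76 ± 0.13 in irradiated and 0.87 ± 0.13 in sham mice (adjusted p = 0.00427 and 0.00153, limma). It kept both calls without each array in turn. Nsun4 was higher in irradiated Balb/c mice by 0.91 ± 0.16 (adjusted p = 0.00403, limma), likewise without each array. In sham mice Rbfa, which helps mature the small subunit, had -0.80 ± 0.18 and Mrm1 -0.89 ± 0.25 (adjusted p = 0.0138 and 0.0452, limma). Rbfa lost its call without 4 of the 12 arrays and Mrm1 without 11. Hsd17b10, of the tRNA-processing complex, had 0.50 ± 0.14 (adjusted p = 0.0417, limma) and lost its call without 7 arrays.

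The sorted cells carried the markers of microglia. Of the 12 listed markers on the array all exceeded the filter, and P2ry12 and Tmem119 had group means between 13.9 and 14.2. Some of them, named here because they were called, moved with the groups: Trem2 was lower in irradiated Balb/c mice by -1.02 ± 0.20 (adjusted p = 0.016, limma). In the average of both strains 3 of the 12 were called lower and 0 higher, where 8.15% of all kept genes were lower and 7.72% higher. The median of the 12 was -0.15, in a range of -0.84 to 0.21. Itgam, which encodes CD11b, was lower by -0.84 ± 0.21, Trem2 by -0.71 ± 0.14 and Siglech by -0.38 ± 0.09 (adjusted p = 0.0237, 0.00889 and 0.0184, limma). Fcrls and Olfml3, not called for irradiation, had higher means in irradiated than in sham mice of both strains. Fcrls was lower in Balb/c by -1.25 ± 0.12 among irradiated and -1.26 ± 0.12 among sham mice, and Olfml3 among sham mice by -0.45 ± 0.12 (adjusted p = 6.79e-05, 5.20e-05 and 0.0385, limma). Markers of other cells were measured too: all 7 of monocytes, 8 of border-associated macrophages and 7 of astrocytes exceeded the filter, as did 6 of 7 of oligodendrocytes, 6 of 8 of endothelial cells and pericytes, 6 of 8 of neurons and 1 of 4 of B cells. Of T and NK cells 0 of 5 did, with Cd3e at the bottom of the scale. On a log2 scale the summed microglia signal was 17.15 to 17.31 in irradiated against 17.30 to 17.32 in sham C57BL/6 arrays. In Balb/c it was 17.09 to 17.18 in irradiated against 17.16 to 17.24 in sham arrays. The summed monocyte signal was 12.7 to 12.9 in irradiated against 11.2 to 11.6 in sham C57BL/6 arrays, and 12.4 to 12.6 in irradiated against 10.8 to 11.5 in sham Balb/c arrays. The summed astrocyte signal was 14.1 to 14.6 in irradiated against 13.4 to 13.9 in sham C57BL/6 arrays, and 14.4 to 15.1 in irradiated against 13.6 to 14.0 in sham Balb/c arrays. That of border-associated macrophages was 14.5 to 14.8 in irradiated against 13.7 to 14.6 in sham C57BL/6 arrays, and 13.8 to 14.2 in irradiated against 13.4 to 13.5 in sham Balb/c arrays. Endothelial and pericyte markers summed to 12.4 to 12.8 in irradiated against 12.1 to 12.3 in sham C57BL/6 arrays, and to 13.5 to 13.8 in irradiated against 12.1 to 13.1 in sham Balb/c arrays. Neutrophil markers, 4 of 6 above the filter, summed to 8.86 to 11.3 in irradiated against 8.81 to 11.2 in sham C57BL/6 arrays, and to 9.73 to 11.8 in irradiated against 6.70 to 7.28 in sham Balb/c arrays. Oligodendrocyte markers summed to 15.3 to 15.8 in irradiated against 15.1 to 15.9 in sham Balb/c arrays, and to 15.74 to 15.94 in irradiated against 15.57 to 16.003 in sham C57BL/6 arrays. The part of these cells in the results was not tested, and in such bulk samples fewer cells of a type and less RNA per cell cannot be told apart.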

How the data were processed

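Arrays of 12 mice, 3 in each of 4 groups taken from the labels, were analysed. Per the labels' protocols, RNA (integrity number above 7.4) went through 2 rounds of linear amplification. The deposited log2 values cover 45101 probe sets, and GCRMA is the method that the submitters' processing notes name. Of these, 34945 had 1 symbol in the platform annotation; 932 had several and named no gene. Each gene took its brightest probe set, and those above 5 in at least 3 arrays were kept. Fits used limma 3.58.1 in R 4.3.3 with 1 mean per group, 8 residual degrees of freedom and Benjamini-Hochberg adjustment over 9120 genes; a call is an adjusted p under 0.05. The test was tried on simulated data. Alternatives were the filter, a floor, quantile normalization, centring, probe set averaging, eBayes options, array weights, the compared groups alone, a replicate block (all 3 same-numbered pairs of irradiated arrays correlated above 0.1), a 3' minus 5' covariate and leaving out arrays. Named genes were the called ones and otherwise 3 per direction by smallest p, with a fixed set; of other lists, called genes or the 2 with the smallest p. Members and lists were chosen with earlier results of these data known. Protein sequences were not analysed here.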

Additional observations from a re-analysis of the deposited data

How the results depend on the processing

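For the average irradiation change the count of called genes (1 in the fit described) was 0 with no filter, with quantile normalization, with the replicate block and with the 3' minus 5' covariate. It was 2 with the mean of all probe sets (Mrpl9 and Mrps18b) and 2 with array weights (Mrpl33 and Mrpl51). For the strain difference in sham mice (4) it was 2 with no filter and 2 with the compared groups alone, 7 with a filter at 7, 8 with the mean of all probe sets and 10 averaged over both treatments. For irradiated mice (5) it was 3 with no filter, 3 with the compared groups alone, 1 with the covariate and 3 without both arrays that stand apart. Without those arrays, a choice made after seeing the data, the median was -0.00305 for the difference between strains in response and 0.0652 for the strain difference in irradiated mice. Leaving out each array in turn gave 0 to 1 calls in C57BL/6, 0 in Balb/c, 0 to 2 in the average, 0 for the difference, and 2 to 6 in sham and 3 to 7 in irradiated mice between strains. The medians then ran from -0.00436 to 0.08 in C57BL/6, -0.11 to 0.00534 in Balb/c, -0.04 to 0.01 in the average, -0.15 to -0.04 for the difference, 0.00700 to 0.10 between strains in sham and -0.07 to 0.03 in irradiated mice. The sham strain count was 2 without sham Balb/c replicates 1 or 2, and the irradiated one 3 without irradiated C57BL/6 replicate 2. These counts are given without the share of all kept genes called under the same alternative. They describe the fits and are no result about the set. The causes were not tested. Counted over each named gene, comparison and alternative, 51 values lost a call, 22 gained one, 5 moved and 1608 did neither. None changed direction while called. Most of the 1608 were never called, so they do not measure how stable the calls were. Mrps18b in the average kept its call under 6 of 23 alternatives. Mrps34 in irradiated mice kept it under 14 of 24 and Mrps30 in sham mice under 15 of 25. Mrps26 kept both of its calls under every alternative. Of 18 same-numbered pairs 9 correlated above 0.1, from -0.05 to 0.45. Only for irradiated Balb/c and irradiated C57BL/6 arrays did all 3 pairs (0.217, 0.447 and 0.323), and there the replicate block kept the same 5 genes called. Elsewhere single pairs reached up to 0.415, for replicate 3 of irradiated C57BL/6 and sham Balb/c mice. The labels give these pairs no more than a shared number, and what else they share is not known. The block ended the calls of Mrps18b in the average and of Mrpl49 and Mrps30 in sham mice, where it called 3 genes. The number of arrays limits the precision.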

Other observations

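A few probe sets carried 2 symbols and were used for no gene. One shared by Nme3 and Mrps34 had a mean log2 value of 8.24 ± 0.60 in irradiated and 8.89 ± 0.16 in sham Balb/c arrays, and 8.78 ± 0.06 in irradiated and 8.99 ± 0.17 in sham C57BL/6 arrays (SD, n = 3 each). Its lowest array was irradiated Balb/c replicate 2, at 7.59. A probe set shared by Gm6238 and Mrpl30 averaged 11.12 ± 0.12 in irradiated and 10.93 ± 0.07 in sham C57BL/6 arrays, and 11.09 ± 0.09 and 11.26 ± 0.18 in irradiated and sham Balb/c arrays. One shared by Ccdc142 and Mrpl53 averaged 8.22 ± 0.12 and 8.23 ± 0.13 in irradiated and sham C57BL/6 arrays, and 8.18 ± 0.20 and 8.13 ± 0.09 in irradiated and sham Balb/c arrays.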
